A study of Mus musculus with 4 samples.

Results

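Lysosomal cathepsins are the proteases that digest proteins inside lysosomes. They were followed here through 10 genes (Ctsa, Ctsb, Ctsc, Ctsd, Ctsh, Ctsk, Ctsl, Ctso, Ctss and Ctsz), which have 22 of the 45037 probe sets on the arrays that are not controls, taken as every probe set that the platform annotation gives to one of these symbols alone. The arrays measured mouse (C57BL/6) bone marrow cells grown with 1.5 µg/ml M-CSF (macrophage colony-stimulating factor), under which marrow precursors become macrophages. Marrow of 21 mice was pooled and sealed into glass barrels at 37 °C, some flown on a space shuttle (space flight) and others kept on the ground under a parallel temperature and activation profile (ground control). In both groups medium was added on culture day 6 and cells were lysed on culture day 15, which was spaceflight day 14. Each array held RNA from 2 barrels, and there were 2 arrays per group, so replicates are separate cultures of 1 marrow pool and not separate animals.

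Cathepsins are made as inactive precursors, tagged with mannose 6-phosphate in the Golgi, carried to the lysosome by receptors for that tag, and activated there at acidic pH. Most are cysteine proteases; Ctsd is an aspartic protease and Ctsa a serine carboxypeptidase. In macrophages they degrade engulfed material and trim the invariant chain of class II antigen presentation, and in osteoclasts, bone-resorbing relatives of macrophages, Ctsk degrades collagen.

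In the flown cultures, several cathepsin probe sets stood at 35.3% to 53.3% of the ground level while others of the family stood close to it, and 0 of the 19 that were bright enough to be tested passed the test. The collagenolytic protease Ctsk stood at 49.4% of its ground control level and the cysteine protease Ctso at 44.5%, log2 differences of −1.02 ± 0.20 and −1.17 ± 0.20 (SE, 2 arrays in each group; limma adjusted p = 0.138 and 0.0973). The aspartic protease Ctsd had a difference of 0.05 ± 0.11 (SE; limma adjusted p = 0.907). Ctsb, a cysteine protease with 5 probe sets, gave differences from −1.50 to 0.00 depending on the probe set. All values are quantile normalized log2(intensity + 16), and each difference is the space flight mean less the ground control mean. Fold changes on this scale understate the change of dim genes.

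The arrays were not alike. RNA was degraded on all of them by the labelled integrity number of 3, and the 3' to 5' signal ratio of the Gapdh control was 15.2 on space flight array 2 against 3.33 to 4.13 on the others (for Actb, 4.91 against 2.30 to 3.08). Before normalization the brightest probe set of space flight array 2 reached 102949 intensity units, against 52570 to 64413 elsewhere. Over all measured probe sets, the 2 space flight replicates differed with an SD of 0.82 and the 2 ground control replicates with an SD of 0.51. Defining macrophage genes were present, with 10 of 12 markers measured and Csf1r, Cd68 and Lyz2 bright on every array, while C1qa and C1qc lay under the dim limit.

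**Figure D1:**
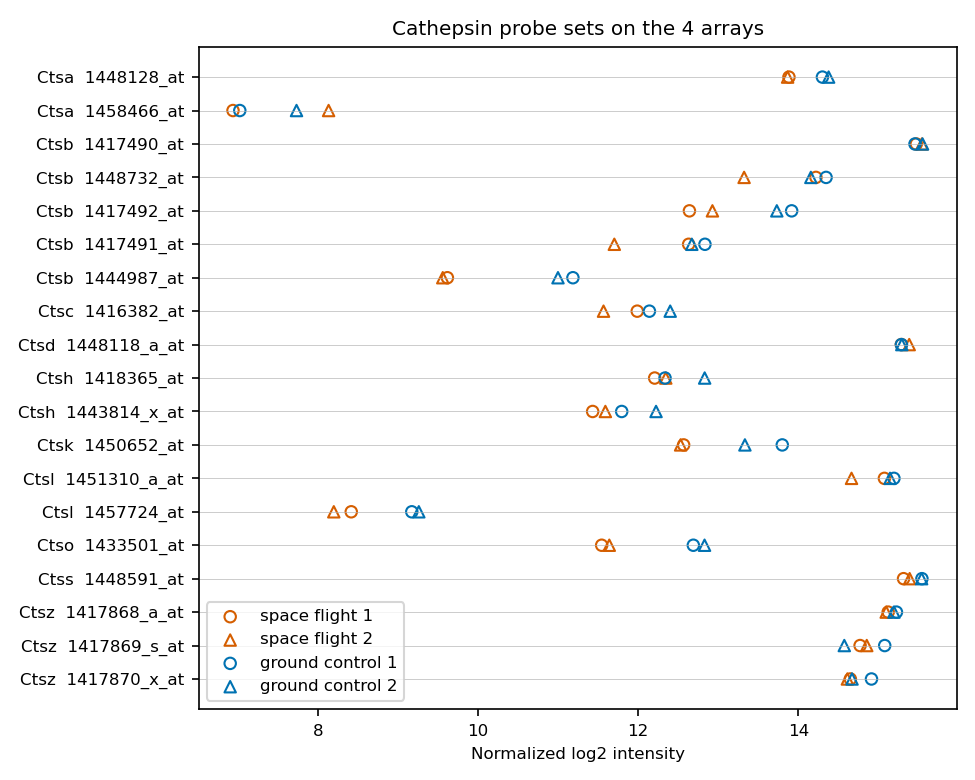
Normalized log2 intensity (horizontal axis) of the 19 cathepsin probe sets bright enough to be measured, one row each, with space flight in orange and ground control in blue and circles and triangles for replicates 1 and 2. Both space flight points lie left of both ground control points in 13 rows, with the widest gaps for Ctso, Ctsk and the Ctsb probe sets 1444987_at and 1417492_at.

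Of the 22 probe sets, 19 had a mean over the 4 arrays of at least 6.40, the median over all probe sets that are not controls, and are called measured. The 3 others, 2 of Ctsc and 1 of Ctso, were dimmer and were not tested. With limma adjusted p under 0.05 as the threshold, 0 of the 19 passed, where 0.0488% of the 22519 measured probe sets did; the smallest adjusted p was 0.0973. At an unadjusted limma p under 0.05 there were 6 lower and 0 higher cathepsin probe sets, where 6.58% of all measured probe sets were lower and 5.43% higher in this way. The groups were separated, with space flight lower on both arrays, for 13 of the 19 and with space flight higher for 0, where the shares over all measured probe sets were 22.5% and 20.7%. These shares are also the ones to read the gene lists further on against. Differences were below 0 for 16 of 19 (51.3% of all) and at −1 or lower for 4 of 19 (4.96% of all). The median difference was −0.46 over the cathepsin probe sets and −0.02 over all measured ones. Without space flight replicate 2 the cathepsin median was −0.28. Probe sets of one gene are not independent, and by the brightest probe set of each gene the groups were separated downwards for 7 of the 10 genes, with a median difference of −0.30.

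**Figure D2:**
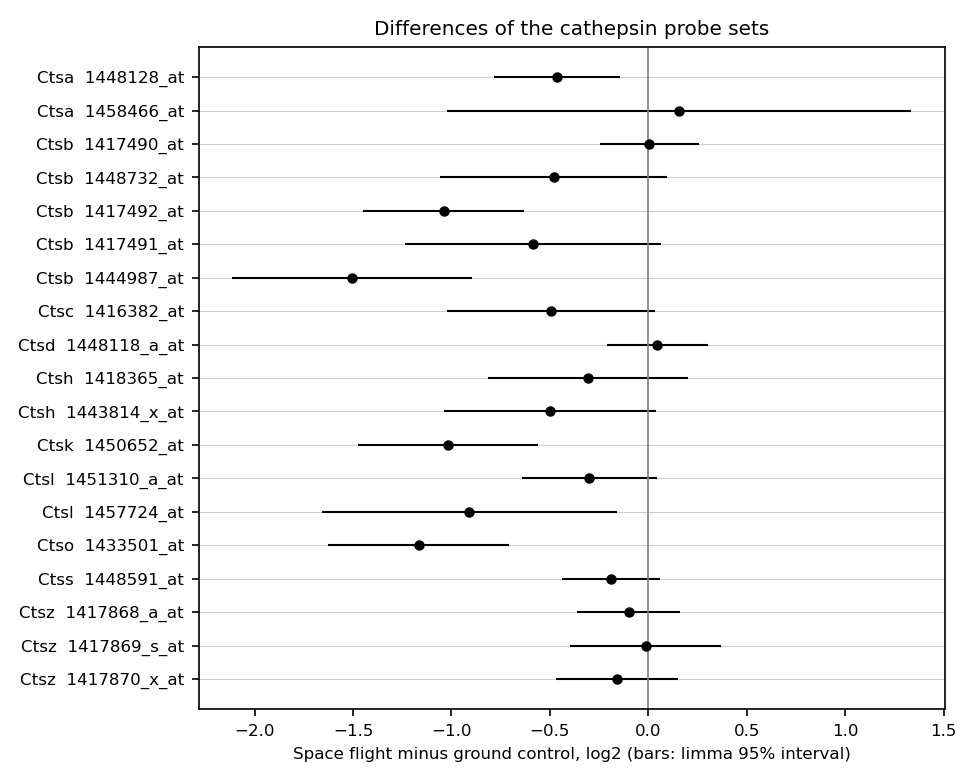
Difference between space flight and ground control on the log2 scale (points) with limma's 95% interval (bars) for the 19 measured cathepsin probe sets. The intervals of 6 probe sets, of Ctsa, Ctsb (2), Ctsk, Ctsl and Ctso, lie wholly below 0 before adjustment for the number of probe sets tested.

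Ctsk (probe set 1450652_at) had 12.57 and 12.53 on space flight arrays 1 and 2 and 13.80 and 13.33 on ground control arrays 1 and 2. The groups did not overlap, and the distance between them was larger than the spread within either. Group means were 12.55 ± 0.027 and 13.57 ± 0.33 (SD, n = 2 each). Leaving out one array at a time gave differences from −1.25 to −0.78, the smallest without ground control replicate 1. Ctsk is best known from osteoclasts. Of the 10 osteoclast markers, 7 were measured, and Ocstamp, Oscar and Calcr were under the dim limit. The proton pump subunit Atp6v0d2 stood at −1.15 ± 0.22 (SE; limma adjusted p = 0.126) and the integrin Itgb3 at −0.39 ± 0.22, whereas the acid phosphatase Acp5 stood at 0.73 ± 0.36 and the gelatinase Mmp9 at 1.73 ± 0.42 (SE; adjusted p = 0.458 and 0.186). Another measured probe set of Itgb3 had the opposite sign, at 0.19, while others of Atp6v0d2 and Mmp9 gave −0.84 and 2.25. The summed intensity of the osteoclast list was 8410 to 10105 in space flight and 13402 to 13603 in ground control. Its brightest genes, Itgb3 and Atp6v0d2, weigh most in that sum. The mean log2 value of the measured markers overlapped, at 9.41 and 9.17 in space flight and 9.13 and 9.36 in ground control. Of these markers 2 were separated downwards and 2 upwards (22.5% and 20.7% of all measured probe sets). The part of osteoclast-like cells in the Ctsk value was not tested.

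Ctso, a widely expressed cysteine protease whose substrates are less well described, had, on 1433501_at, 11.55 and 11.64 in space flight and 12.69 and 12.83 in ground control. Its replicates differed little, and the groups lay more than 1 log2 unit apart. Its difference stayed between −1.38 and −1.10 under every alternative run. The second Ctso probe set, 1443084_at, was dim on most arrays, with 5.23 and 4.28 in space flight and 6.47 and 4.93 in ground control.

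The 5 Ctsb probe sets fell into different patterns. Ctsb encodes an abundant cysteine protease that cuts both within proteins and from their ends. Its brightest probe set, 1417490_at, had 15.47 and 15.54 in space flight and 15.46 and 15.55 in ground control. The groups overlapped, with a difference of 0.00 ± 0.11 (SE) and a 95% interval from −0.25 to 0.25. Probe set 1417492_at had 12.64 and 12.93 in space flight against 13.92 and 13.73, and 1444987_at had 9.62 and 9.56 against 11.19 and 11.0. For these both space flight arrays were low, with differences of −1.04 ± 0.18 and −1.50 ± 0.27 (SE; limma adjusted p = 0.0973 and 0.107). Probe set 1448732_at had 14.22 and 13.32 in space flight against 14.35 and 14.16, and 1417491_at had 12.63 and 11.70 against 12.83 and 12.67.

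In the latter pair only space flight array 2, where the Gapdh ratio was 15.2, stood clearly low. Their differences of −0.48 ± 0.26 and −0.59 ± 0.29 (SE) became −0.03 and −0.12 without it, whereas 1417492_at and 1444987_at then had −1.18 and −1.47. The part of RNA quality in these values was not tested. The ratio of each Ctsb probe set to the brightest one within the same array, taken from the intensities as deposited, does not depend on a scaling factor. As log2 it was −2.60 and −3.12 in space flight against −1.48 and −1.70 in ground control for 1417492_at, and −5.60 and −6.63 against −4.05 and −4.43 for 1444987_at. For both, the ratio was lower on the space flight arrays than on the ground control arrays; these ratios were not tested. The mean of the 5 gave a Ctsb difference of −0.72 ± 0.17 (SE; limma adjusted p = 0.167).

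Ctsl and Ctss cut the invariant chain, the chaperone that fills the class II groove, and Ctss does so in marrow-derived antigen presenting cells. Ctss (1448591_at) had 15.31 and 15.39 in space flight and 15.54 and 15.54 in ground control. Both space flight values were lower, by −0.19 ± 0.11 (SE), but with intensities as deposited the sign turned, to 0.13. The brightest Ctsl probe set, 1451310_a_at, had 15.08 and 14.67 in space flight and 15.19 and 15.15 in ground control. Its difference of −0.30 ± 0.15 (SE) rested on space flight array 2 and was −0.09 without it. The dimmer Ctsl probe set, 1457724_at, had 8.42 and 8.20 against 9.17 and 9.26, a difference of −0.91 ± 0.33 (SE; limma adjusted p = 0.329) with both space flight arrays low. The invariant chain itself, Cd74, went the other way, at 10.45 and 10.35 against 9.38 and 9.52, a difference of 0.95 ± 0.29 (SE; limma adjusted p = 0.248).

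Ctsc, a dipeptidyl peptidase that activates the serine proteases of neutrophil and mast cell granules, had 11.99 and 11.57 in space flight and 12.14 and 12.40 in ground control on its measured probe set, 1416382_at. The groups were separated, by −0.49 ± 0.23 (SE; limma adjusted p = 0.448), and the difference was −0.28 with space flight array 2 left out and −0.70 with array 1 left out. Its dim probe sets overlapped: 1437939_s_at had 6.07 and 5.62 against 5.78 and 6.82, and 1446834_at had 5.94 and 4.77 against 5.11 and 5.95. Of 8 granule proenzyme genes that it activates, 3 were measured, and for all 3 the groups were separated upwards (20.7% of all measured probe sets were). These were Elane at 1.72 ± 0.50, Prtn3 at 1.63 ± 0.35 and Ctsg at 1.00 ± 0.42 (SE; limma adjusted p = 0.237, 0.148 and 0.395). Neutrophil markers also stood higher, but their list holds Elane and Prtn3 again, so its count is not separate from the one above. Of its 10 measured markers, 9 were higher on both space flight arrays than on both ground control arrays, although 0 passed limma's test. Ngp stood at 1.51 ± 0.21, Camp at 1.97 ± 0.27 and Ltf at 1.68 ± 0.27 (SE; adjusted p = 0.0557, 0.0557 and 0.0845). The summed intensity of the list was 78597 to 108920 in space flight and 38886 to 43097 in ground control. The macrophage list summed to 107023 to 114527 in space flight and 130547 to 133608 in ground control, with 6 of 10 measured markers separated downwards and 2 upwards. The mean log2 value of its measured markers overlapped, at 10.80 and 11.05 in space flight and 10.87 and 11.16 in ground control. At an unadjusted limma p under 0.05, 5 of these markers were lower and 1 higher (6.58% and 5.43% of all measured probe sets). Csf1r stood at −0.37 ± 0.12, Cd68 at −0.43 ± 0.13 and Mrc1 at −1.47 ± 0.45 (SE; limma adjusted p = 0.265, 0.253 and 0.256). Other Csf1r probe sets gave −1.20 and −0.95 (limma adjusted p = 0.0707 and 0.186). C1qb, with the smallest p among the brightest probe sets of the list, stood at 1.42 ± 0.43, and Fcgr1 at 1.02 ± 0.56 (SE; adjusted p = 0.249 and 0.505). The ground values of Fcgr1, 6.01 and 6.13, were below the dim limit. Fcgr1 and C1qb are the 2 macrophage markers counted above as separated upwards. Fcgr1 was tested only through its high space flight values and supports no count. Erythroid markers were separated upwards for 5 of 6 and summed to 6374 to 12118 in space flight and 1588 to 3247 in ground control, with 0 past the test. Fewer cells of a type and less RNA per cell cannot be told apart in these bulk samples. The part of cell composition in the cathepsin values was not tested.

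Ctsa, the carboxypeptidase that protects the sialidase Neu1 and the galactosidase Glb1 in a lysosomal complex, had, on 1448128_at, 13.88 and 13.87 in space flight and 14.30 and 14.38 in ground control. The replicates were close and the groups separated, by −0.46 ± 0.14 (SE; limma adjusted p = 0.254). A dim second probe set, 1458466_at, had 6.94 and 8.14 against 7.03 and 7.74, with overlap. The partners Neu1 and Glb1 stood at −0.12 ± 0.24 and −0.23 ± 0.28 (SE). Another measured probe set of Neu1 gave −0.58 ± 0.62 (SE).

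Ctsh, mainly an aminopeptidase, had 12.21 and 12.35 in space flight and 12.34 and 12.83 in ground control on its brighter probe set, 1418365_at, with the groups overlapping. The other, 1443814_x_at, had 11.43 and 11.59 against 11.80 and 12.22, without overlap; its suffix marks probe sets that may cross-hybridise. The differences were −0.31 ± 0.23 and −0.50 ± 0.24 (SE; limma adjusted p = 0.631 and 0.451). Without ground control replicate 2 they were −0.06 and −0.28, and without ground control replicate 1 −0.55 and −0.71.

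The measured probe sets of Ctsd and Ctsz all lay close to 0. Ctsd (1448118_a_at) had 15.29 and 15.39 in space flight and 15.29 and 15.29 in ground control, and its 95% interval ran from −0.21 to 0.30. Ctsz, a carboxypeptidase, had 15.12 and 15.10 against 15.23 and 15.19 on its brightest probe set, 1417868_a_at. Its 3 probe sets, with 1417869_s_at and 1417870_x_at, gave differences from −0.16 to −0.01, and with intensities as deposited they all turned positive, from 0.08 to 0.24. These intervals do not show that the levels were equal.

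**Figure D3:**
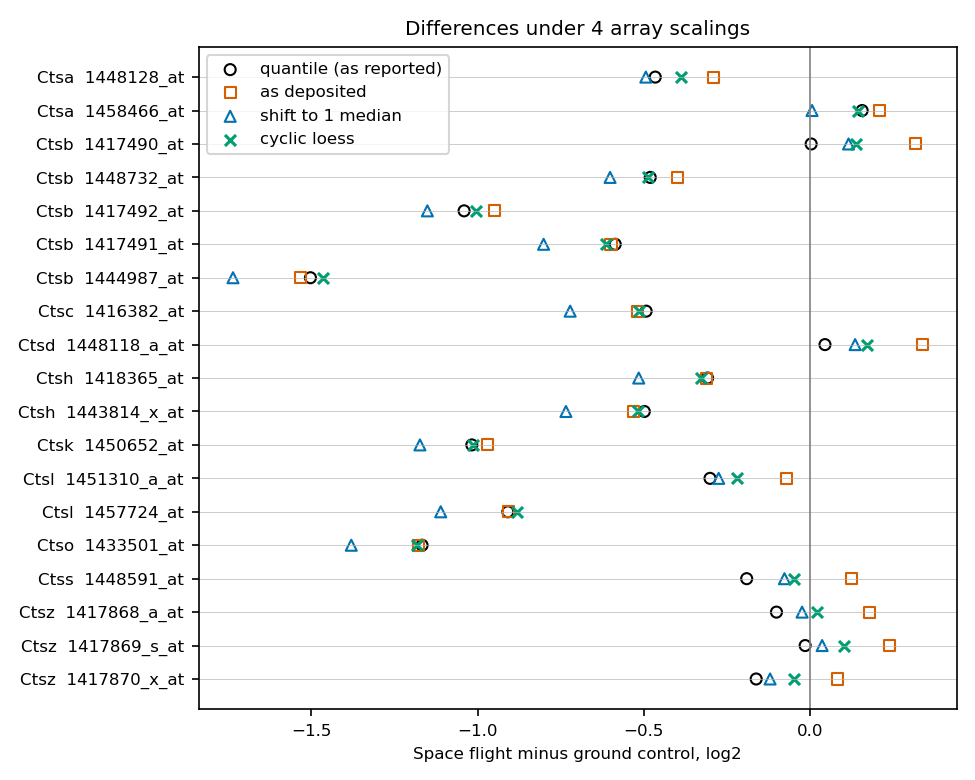
Difference between space flight and ground control on the log2 scale for the 19 measured probe sets under quantile normalization (circles), intensities as deposited (squares), a shift of each array to 1 median (triangles) and cyclic loess (crosses). Ctso, Ctsk and the Ctsb probe sets 1417492_at and 1444987_at lie between −1.74 and −0.95 under all 4 scalings, while the Ctss and Ctsz points cross 0.

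The direction of Ctss and of the Ctsz probe sets, which are among the brightest members, depended on how the arrays were scaled. As deposited, 12 of the 19 differences were below 0, against 16 after quantile normalization, and Ctsd and the brightest Ctsb probe set then stood at 0.34 and 0.32. After a shift of every array to 1 median, measured probe sets had a median of −0.18 and 15 of the 19 were below 0. A comparison inside each array, chosen after the values were seen, sets each cathepsin against Ctsd on the deposited intensities. Of 18 probe sets, 12 had lower ratios to Ctsd on both space flight arrays than on both ground control arrays and 0 had higher ones, where 28.5% and 7.09% of all other measured probe sets did. Ctsd has the highest deposited difference of the 19, so lower ratios to it follow in part from the choice of reference. For Ctso the log2 ratio to Ctsd was −3.51 and −4.32 in space flight against −2.45 and −2.34, and for Ctsk −2.51 and −3.37 against −1.43 and −1.83. For both genes space flight array 2 was the lowest.

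**Figure D4:**
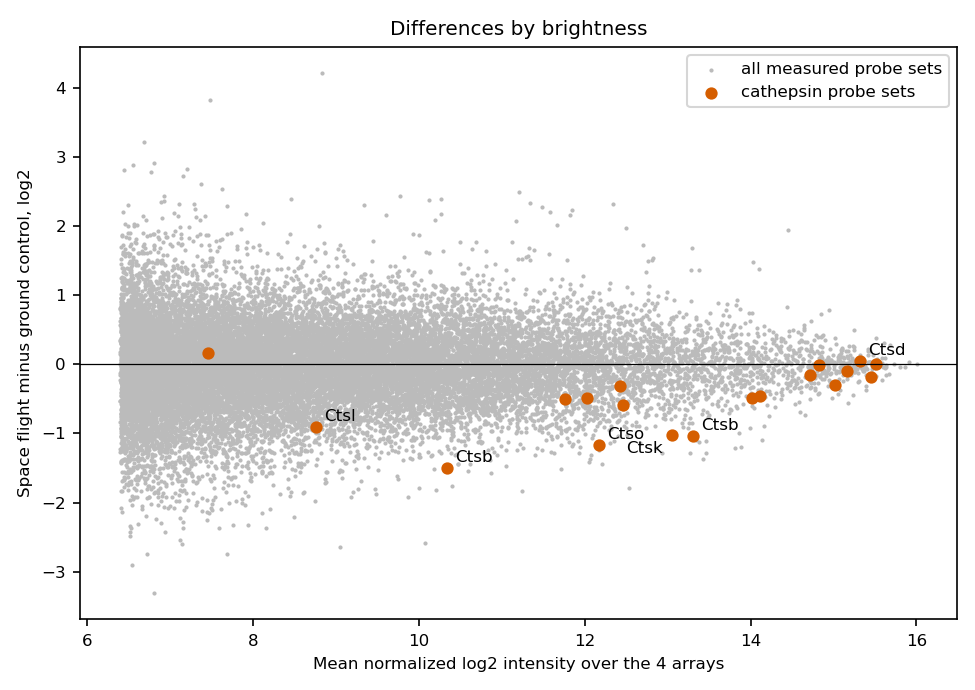
Difference between space flight and ground control (vertical axis, log2) against mean normalized log2 intensity (horizontal axis) for all 22519 measured probe sets (grey) and the 19 cathepsin probe sets (orange). Differences narrow towards the bright end, where 9 cathepsin probe sets lie at means of 14 or more with differences from −0.48 to 0.05.

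Differences were smaller towards the bright end. The SD of the difference over all probe sets was 0.44 for means from 12 to 14 and 0.28 for means of 14 or more, close to the highest normalized value of 16.0. In the range from 12 to 14, 6 of 6 cathepsin probe sets were below 0, with a median of −0.80, where 50.9% of the 1583 probe sets there were below 0 with a median of −0.01. At 14 or more, 7 of 9 were below 0, with a median of −0.16, where 50.9% of 479 were. Whether the brightest probe sets were near the top of the scanner's range was not tested.

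Among regulators of lysosomal genes, the MiT/TFE transcription factors that bind E-box motifs upstream of many of them, Mitf had 11.19 and 11.14 in space flight and 11.99 and 12.09 in ground control. Its difference was −0.87 ± 0.22 (SE; limma adjusted p = 0.196), but a dimmer probe set gave 0.32. Tfec stood at −0.82 ± 0.31, Tfeb at 0.65 ± 0.38 and Tfe3 at −0.0050 ± 0.26 (SE; adjusted p = 0.351, 0.537 and 0.996). The list of 7 also held the lysosomal channel Mcoln1 and the nutrient-signalling genes Flcn and Rraga; 0 of the 7 passed the test, with 2 lower and 0 higher at an unadjusted p under 0.05 (6.58% and 5.43% of all).

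The 250 bases upstream of the RefSeq start are shown for the genes with the lowest brightest probe sets, Ctso and Ctsk, and for Ctsd, whose difference was close to 0, to set their E-boxes side by side. The motifs searched were CACGTG, its extended form TCACGTGA and CATGTG, on both strands, where TCACGTGA contains CACGTG. Capitals mark every match. The windows are from RefSeq on GRCm38.p6: Ctso at chr3:81932351-81932600 (plus strand), Ctsk at chr3:95498960-95499209 (plus strand) and Ctsd at chr7:142387828-142388077 (minus strand).
Ctso: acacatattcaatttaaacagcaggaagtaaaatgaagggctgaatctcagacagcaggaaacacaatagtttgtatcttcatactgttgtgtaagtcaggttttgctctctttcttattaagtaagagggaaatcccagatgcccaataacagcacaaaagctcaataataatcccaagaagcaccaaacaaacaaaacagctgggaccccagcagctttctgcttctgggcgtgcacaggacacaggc
Ctsk: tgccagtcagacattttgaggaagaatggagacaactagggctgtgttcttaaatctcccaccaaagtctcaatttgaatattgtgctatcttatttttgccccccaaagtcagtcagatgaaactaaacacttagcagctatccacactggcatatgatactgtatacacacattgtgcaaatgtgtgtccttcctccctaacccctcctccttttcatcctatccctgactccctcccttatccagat
Ctsd: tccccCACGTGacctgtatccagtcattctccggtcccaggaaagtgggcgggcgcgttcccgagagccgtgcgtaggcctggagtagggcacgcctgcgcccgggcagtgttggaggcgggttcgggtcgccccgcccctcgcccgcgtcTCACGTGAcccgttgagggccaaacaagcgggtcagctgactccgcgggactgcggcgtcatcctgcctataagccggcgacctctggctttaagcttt

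The Ctsd window held CACGTG at 245 and at 98 bases before the start, the latter inside TCACGTGA, and the Ctso and Ctsk windows held none of the motifs. The table had windows for 8 of the 10 genes, not for Ctsb and Ctsh. Of the 9 windows, 3 held CACGTG (Ctsa, Ctsd and Ctsl) and 2 held TCACGTGA (Ctsa and Ctsd), where 6.02% and 0.785% of all 32851 windows did. CATGTG was in 0 of 9, where 12.3% of all windows held it. By their brightest probe sets, Ctsa and Ctsl, which have a motif, stood at −0.46 and −0.30. Ctsc, Ctss and Ctsz, which have none, stood at −0.49, −0.19 and −0.10. A relation between motif and difference was not tested. A match is a description of these letters and not a binding site.

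Genes of delivery to the lysosome, not all of them carriers of cathepsins, were all measured, 14 of 14, and 0 passed the test. At an unadjusted p under 0.05, 3 were lower and 0 higher (6.58% and 5.43% of all measured probe sets), and the groups were separated downwards for 6 and upwards for 0 (22.5% and 20.7% of all). The mannose 6-phosphate receptor Igf2r had 9.95 and 10.84 in space flight and 11.33 and 11.38 in ground control, a difference of −0.96 ± 0.32 (SE; limma adjusted p = 0.286), but −0.13 on another probe set. Scarb2, the carrier of glucocerebrosidase, stood at −0.57 ± 0.16 and the retromer subunit Vps35 at −0.57 ± 0.17 (SE; adjusted p = 0.232 and 0.252). On another probe set Scarb2 gave −0.62 and Vps35 −0.12. The smaller mannose 6-phosphate receptor M6pr had 13.75 and 13.03 against 13.69 and 13.75, low on space flight array 2 alone (−0.33 ± 0.23, SE), and 0.17 on another probe set.

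Among 11 processing enzymes and partners, 0 passed, with 1 lower and 1 higher at an unadjusted p under 0.05, near the shares of 6.58% and 5.43% over all probe sets. The lower one was Lgmn, the asparaginyl protease that cuts cathepsin precursors, at 12.59 and 12.12 against 13.11 and 12.80, a difference of −0.61 ± 0.22 (SE; limma adjusted p = 0.336); the higher one was Cd74. The sulfatase Galns stood at −0.38 ± 0.30 and the saposin precursor Psap at −0.04 ± 0.11 (0.40 on another probe set). Over the list, differences were below 0 for 9 of 11 genes (51.3% of all measured probe sets), with a median of −0.09. The groups were separated downwards for 2 and upwards for 1 (22.5% and 20.7% of all).

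Of 8 measured cathepsin inhibitor genes, 0 passed, with 0 lower and 1 higher at an unadjusted p under 0.05 (6.58% and 5.43% of all). The serpin Serpinb6a stood at −0.24 ± 0.15 and the stefin Stfa2l1 at 0.71 ± 0.53. The secreted inhibitor Cst3 stood at −0.08 ± 0.12, and the cytosolic Cstb at −0.0037 ± 0.11 on its brightest probe set and −0.66 on another. The higher one was the stefin Stfa3, with 7.30 and 9.29 in space flight and 5.40 and 4.75 in ground control (3.22 ± 0.70, SE). Its ground values were below the dim limit, so it was tested only through its high space flight values and supports no count, and stefin genes are so alike that 1 probe set may read several.

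**Figure D5:**
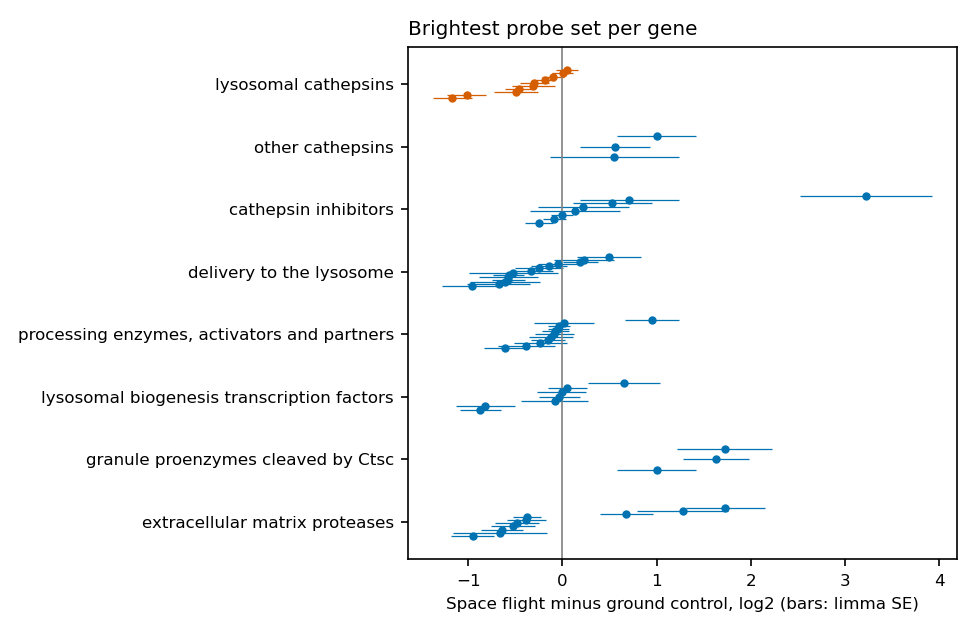
Difference between space flight and ground control (log2, with limma's SE as bars) of the brightest probe set of each measured gene in the cathepsin family (orange) and in 7 related lists (blue). Left of 0 lie 8 of 10 lysosomal cathepsins, 11 of 14 delivery genes and 9 of 11 processing enzymes and partners. So do 7 of 10 matrix protease and inhibitor genes and 5 of 7 genes in the list of lysosomal gene regulators. Right of 0 lie the 3 measured genes activated by Ctsc, the 3 measured further cathepsins and 5 of 8 cathepsin inhibitors.

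Proteases of the extracellular matrix and their inhibitors, 10 of 11 measured, stood on both sides of 0, and 0 passed the test. At an unadjusted p under 0.05 there were 3 lower and 3 higher (6.58% and 5.43% of all). The groups were separated downwards for 7 and upwards for 3 (22.5% and 20.7% of all measured probe sets), with a median difference of −0.43. By the brightest probe set of each cathepsin gene, 7 of 10 were separated downwards and 0 upwards, with a median of −0.30. Timp2, an inhibitor of matrix metalloproteinases, stood at −0.95 ± 0.23 (−0.10 to −0.16 on its 3 other measured probe sets), and the collagenase Mmp8 at −0.64 ± 0.22 (SE; limma adjusted p = 0.186 and 0.298). On the other side were Mmp9, given above, and the inhibitor Timp1 at 1.28 ± 0.48 (SE; adjusted p = 0.341).

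The fit to all 4 arrays had 2 residual degrees of freedom, and fits with an array left out had fewer. The number of calls depended on which array was left out. Without space flight replicate 1, 7 cathepsin probe sets passed the threshold, and without space flight replicate 2, 4 did, namely Ctso, Ctsk and the Ctsb probe sets 1417492_at and 1444987_at, which were also among the 7. In those fits 2632 and 1654 probe sets of all passed, and the moderated test had 39.2 and 45.8 degrees of freedom against 9.31. The space flight array that remains has no replicate there, and its spread is taken from the ground control pair. Without ground control replicate 1 or 2 the cathepsin count was 0, with 13.3 and 13.1 degrees of freedom and 1 and 12 calls over all probe sets. The cause of these differences in calls was not tested.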

How the data were processed

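The authors deposited linear intensities, 1 for each probe set on each array. GCOS is the software that the submitters' processing notes name, without a version; how probes were summarised is not given in the sources used here. The deposited intensity values have the same mean after trimming 2% from each end on all 4 arrays (500.004), which a single scaling factor per array gives. From the labels' protocols, RNA of 2 barrels was combined per sample, the best 2 pools per group were hybridised after 2 rounds of amplification, and RNA amounts were 12.5 to 25 ng.

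In R 4.3.3, log2(intensity + 16) was quantile normalized without the 64 control probe sets, because array medians differed by up to 0.38. The 22519 probe sets with a mean of at least 6.40 were tested with limma 3.58.1 (lmFit, eBayes with intensity trend, two-sided, Benjamini-Hochberg over all of them, threshold 0.05; 2 residual and 9.31 moderated degrees of freedom). All adjusted p-values are from limma. An exact test of 2 against 2 arrays cannot go below 0.333. The procedure was tested on simulated data. All 22 member probe sets were found by gene identifier in a RefSeq table, and 0 symbols changed. No genome build of the probe sets is named in the sources used here, so no probe positions are given. The rule named every member probe set and, of each related list, genes past the threshold and up to 3 of the smallest p; further genes and all cell type markers were chosen after their values were seen. The members, lists and rules were chosen with earlier results of these data known. Alternatives were the offset, the scaling, the filter on dim probe sets, the trend, 1 value per gene, each array left out (with the scaling of all 4 kept), and the replicate number as a block. The number of arrays limits the precision.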

Additional observations from a re-analysis of the deposited data

How the results depend on the processing

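Limits are few arrays, degraded RNA and 3 cathepsin probe sets too dim to test; their signal over background is unknown. Counts of all probe sets higher and lower were 10 and 1 as reported, 9 and 1 with an offset of 1, 15 and 4 with an offset of 64, 6 and 2 as deposited, 15 and 3 under cyclic loess, 35 and 27 with a mean of at least 8, 5 and 2 with the brightest probe set per gene, and 0 and 0 with a shift to 1 median, with no filter on dim probe sets, with no intensity trend and with the mean of the measured probe sets per gene. In the last 4 settings 2594, 3936, 2230 and 1489 had an unadjusted limma p under 0.05. Cathepsin probe sets past the threshold were 0 in all these settings except with a mean of at least 8, where the Ctsb probe sets 1417492_at and 1444987_at passed (2; adjusted p = 0.0478 and 0.0498). The cathepsin median was −0.31 as deposited and −0.30 with the brightest probe set per gene.

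With one array left out, higher counts ran from 1 to 963, lower counts from 0 to 1669, cathepsin calls from 0 to 7 and the cathepsin median from −0.50 to −0.28. Differences that changed sign there ran from −0.44 to 0.75 for Ctsa 1458466_at, from −0.043 to 0.052 for Ctsb 1417490_at, from −0.0030 to 0.095 for Ctsd and from −0.27 to 0.24 for Ctsz 1417869_s_at. As deposited, Ctss turned to 0.13 and the Ctsz probe sets 1417868_a_at, 1417869_s_at and 1417870_x_at to 0.18, 0.24 and 0.084. Ctsz 1417869_s_at was 0.038 with a shift to 1 median and 0.10 under cyclic loess, where 1417868_a_at was 0.023. Averaged over its 5 probe sets, Ctsb stood at −0.72 in place of 0.00. The causes were not tested, apart from the Ctsb mean, which adds lower probe sets by construction.

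With the replicate block, 164 probe sets were higher and 170 lower, and 4 cathepsin probe sets passed (Ctso, Ctsk, Ctsb 1417492_at and 1444987_at; adjusted p from 0.00886 to 0.0156). Nothing in the labels says that equal numbers share a batch, and deviations of same-numbered arrays had a correlation of 0.07 across probe sets.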

Other observations

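Outside the 10 lysosomal genes, 13 further cathepsin genes had probe sets, of which 3 were measured and 0 passed the test. The 3 were Ctse, Ctsw and Ctsg, the last given above with the genes activated by Ctsc. Their differences were all above 0 (51.3% of all measured probe sets were below 0), with a median of 0.56. The groups were separated upwards for 2 and downwards for 0 (20.7% and 22.5% of all). The aspartic protease Ctse, found in red cell precursors, had 8.30 and 8.66 in space flight and 7.85 and 8.00 in ground control (0.56 ± 0.37, SE; limma adjusted p = 0.590), and the lymphocyte cathepsin Ctsw, with 6.01 and 7.95 against 6.67 and 6.19, overlapped. Ctsf, a further lysosomal cysteine protease, had 4.49 and 5.32 in space flight and 7.01 and 7.06 in ground control, a difference of −2.13 on values around the dim limit that was not tested because its mean lay under that limit. The placental genes Ctsj, Ctsm, Ctsq, Ctsr, Cts3, Cts6, Cts7, Cts8 and Ctsll3 were all under the limit by their mean.

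By Euclidean distance between centred values over the 4 arrays, the probe sets most like Ctso, among 19259 compared, belonged to the stress kinase gene Mapk14 (difference −1.10, distance 0.073), Cytip (−1.24, 0.079) and Cpne3 (−1.09, 0.082). Those most like the Ctsb probe set 1417492_at belonged to Gngt2 (−1.02, 0.054), Sec11c (−0.98, 0.069) and the squalene epoxidase gene Sqle (−1.11, 0.083). With 4 arrays, such likeness is a description of 4 values.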
